A study of Mus musculus with 22 samples.

Results

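The probes described here address genomic intervals rather than named transcripts. On the Agilent mouse array that was used, 16194 of 55681 non-control probes carry a chromosome, a start and an end in place of a gene accession, and the 12710 of these (78.5%) that were well above background on at least 3 of the 22 arrays were examined. The intervals are given on the mouse genome build mm9, and the F or R at the end of a name is read here as the forward or the reverse strand. They lie on 20 chromosomes (418 probes on X, none on Y) and range from 62 to 7128487 bp in length, with a median of 10676 bp. The 12710 probes fall into 4376 combinations of interval and strand, 3387 of which hold at least 2 probes that passed, and into 2151 loci of overlapping intervals. A total of 473 probes passed on exactly 3 arrays, while 715 interval probes that were well above background on 2 arrays were left out.

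Mammalian genomes are transcribed far outside protein-coding genes. Long intergenic non-coding RNAs (lincRNAs) are spliced and polyadenylated transcripts of such regions, enhancers give rise to short-lived RNAs, and many loci produce an antisense RNA from the opposite strand. In macrophages, inflammatory stimuli switch on transcription at many intergenic sites, and some lincRNAs, such as lincRNA-Cox2, are known to modulate the inflammatory response. The files name an interval and a strand but no transcript, so a probe is called here by its identifier and its interval.

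The macrophages were bone marrow-derived macrophages (BMDM), grown from femoral marrow of C57BL/6 mice with 10 ng/ml macrophage colony-stimulating factor (M-CSF) for 9 days. The mice were wildtype (wt), deficient in the kinase MK2 (MK2-/-) or deficient in both MK2 and MK3 (MK2/3-/-). MK2 and MK3 are protein kinases downstream of p38 mitogen-activated protein kinase that control the stability and translation of inflammatory mRNAs. Cells received 100 ng/ml lipopolysaccharide (LPS), a bacterial cell wall component sensed through Toll-like receptor signalling, or medium alone for 360 min, and the question asked was how the absence of MK2, or of both kinases, alters the response. The wt groups held 4 arrays in medium and 3 with LPS (mice aged 12 and 13 weeks), the MK2-/- groups 4 and 4 (10 to 13 weeks), and the MK2/3-/- groups 3 in medium (11 and 12 weeks) and 4 with LPS (11 to 14 weeks). All mice were labelled male.

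Several properties of the arrays bear on every result below. The arrays of each genotype shared 1 slide, so that genotype and slide cannot be told apart, whereas the LPS responses were measured within a slide. The median processed signal ranged from 32.7 to 108 per array, and between 49.7% and 79.2% of all interval probes on an array were well above background. The highest of these shares came from replicate 3 of MK2-/- with LPS, which also carried 837 interval spots marked as irregular by the scanner software, against 0 to 27 on the other arrays. Both MK2-/- arrays numbered 3 went against the label male: the Y-linked Ddx3y was at 1.99 to 2.01 (log2 signal) there and at 10.1 to 11.3 on the other 20, and Xist, the RNA of the inactive X chromosome, was at 7.66 to 7.78 against 1.99 to 5.79. Signal of Mapkapk2, the gene for MK2, was 10.8 to 15.3 in wt, 8.70 to 11.9 in MK2-/- and 8.34 to 11.2 in MK2/3-/- BMDM, and Mapkapk3 read 7.65 to 11.4 in MK2/3-/- against 11.9 to 13.4 in the others; whether these probes lie in the deleted parts is not given in the sources used here. All 6 macrophage markers found on the array were well above background on the 22 arrays. Their summed level was 18.9 to 19.4 in medium and 17.9 to 18.4 after LPS. Among markers of other cells, the T cell list summed to 9.74 to 10.7 in wt medium and 11.1 to 12.3 in MK2-/- medium. With LPS it was 10.8 to 11.3 and 11.6 to 12.1, so that MK2-/- lay above wt without overlap. Of its 4 markers only Cd3e was well above background on all 22 arrays. Cd3e was higher in MK2-/- by 1.31 in medium (limma adjusted p = 0.00909), but not called with LPS (0.70, adjusted p = 0.140). Cd3d and Trat1 were not called between MK2-/- and wt. The erythroid list, carried by Hba-a1, also lay above wt in MK2-/- without overlap. It read 6.32 to 7.26 against 5.38 to 5.85 in medium, and 7.16 to 7.87 against 5.91 to 6.37 with LPS. The B cell list read 8.99 to 10.5 on all medium arrays and 7.54 to 8.54 on all LPS arrays. The neutrophil list rose in wt from 11.3 to 11.8 in medium to 12.3 to 13.4 with LPS, and read 11.2 to 12.3 in MK2-/- with LPS. The fibroblast list spanned 8.68 to 16.6 and overlapped between all groups, and Ncr1 of natural killer cells was well above background on 3 arrays. The dendritic cell list read 15.4 to 17.2. With LPS in wt, MK2-/- and MK2/3-/-, its Zbtb46 rose (3.71, 3.33 and 5.16) and its Siglech fell (-0.73, -0.67 and -0.74). Flt3 was called in MK2-/- alone (-1.81). The mast cell list read 8.94 to 10.8. Against wt with LPS, its Cpa3 was lower in MK2-/- (-1.86) and higher in MK2/3-/- (1.69), while Mcpt4 and Tpsb2 were not called. Fewer cells of a type and less RNA per cell cannot be told apart in such samples, and the part of other cell types in the results was not tested.

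Interval probes were dim. Averaged over all arrays, their median log2 signal was 5.68, against 7.42 for the 33587 other probes that passed the same filter. They were well above background on all 22 arrays in 46.0% of cases, compared with 64.4% of the other probes. In a principal component analysis of the 11920 interval probes measured on every array, the first component (31.5% of the variance) placed all medium arrays on one side, at 9.16 to 76.1, and all LPS arrays on the other, at -70.2 to -9.63. The second component (18.8%) ordered the arrays by genotype, with MK2-/- at -63.2 to -26.3, wt at 6.96 to 12.8 and MK2/3-/- at 28.1 to 73.7. Thus, the interval probes alone separated the 6 groups, although the second axis also follows the slide.

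In wt BMDM, LPS changed 3230 of the 12710 interval probes. Of these, 2230 rose and 1000 fell (limma, Benjamini-Hochberg adjusted p below 0.05). Over all 46297 probes tested 35.3% were called in this comparison, with 17.3% higher and 18.0% lower, whereas among the interval probes 17.5% were higher and 7.87% lower. The interval probes were therefore called less often and mostly upwards, and 69.0% of their calls were rises compared with 44.1% of the calls among other probes. Their median log2 difference was 0.23, whereas that of the other probes was -0.04. At least 4-fold rises were seen for 246 interval probes in 179 interval names and 157 loci, and at least 4-fold falls for 314 in 205 names and 166 loci. Over all probes tested, 3.57% rose and 4.54% fell by that much. Leaving out each array in turn gave 2212 to 3533 calls.

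Signal strength accompanied this asymmetry. Among interval probes with a mean log2 signal between 9 and 10, 50.3% rose and 6.63% fell after LPS in wt, while other probes of the same brightness rose in 26.6% and fell in 25.3% of cases. Between 7 and 8, the shares were 26.4% and 6.81% for interval probes and 19.4% and 21.9% for other probes. Below 4, where most spots are close to background, 4.43% of interval probes rose and 8.81% fell. The share of rises among interval probes thus climbed with brightness up to 10, whereas the share of falls stayed between 6.63% and 10.7% in every band.

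**Figure D1:**
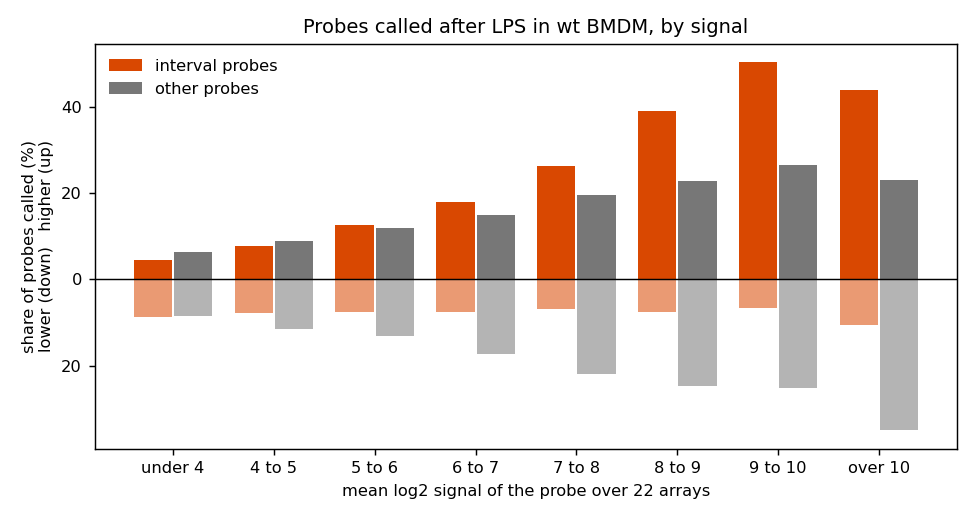
Percentage of probes higher (up) and lower (down) after LPS in wt BMDM, by band of mean log2 signal over the 22 arrays, for interval probes and for other probes. In every band from 5 upwards a larger share of interval probes than of other probes rose and a smaller share fell; at 9 to 10 the shares of rises were 50.3% and 26.6%.

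Next, the LPS response was compared between the genotypes. In MK2-/- BMDM 2676 interval probes were called, 1609 higher and 1067 lower, against 36.2% of all probes tested (15.1% higher and 21.1% lower). In MK2/3-/- BMDM there were 3613, of which 2656 were higher and 957 lower, against 40.7% of all probes (19.4% higher and 21.3% lower). Across the 3 genotypes 4942 interval probes (38.9%, against 51.2% of all probes tested) responded in at least 1 and 1708 (13.4% against 25.0%) in all. Of the 1708, 1123 rose in every genotype and 585 fell in every genotype. Of the 4942, 3 were called higher in one genotype and lower in another. Of the 3230 calls in wt, 97.3% had the same sign in MK2-/- and 97.6% in MK2/3-/- BMDM, and 1919 and 2360 of them were called there too. For other probes this agreement is not given here, so it cannot be read as particular to interval probes. A call in 1 genotype alone, seen for 656 probes in wt, 461 in MK2-/- and 956 in MK2/3-/- (5.16%, 3.63% and 7.52%, against 4.07%, 4.19% and 6.88% of all probes), does not show a different response, and the test of the difference itself is given further below.

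These counts depended on how arrays were set to a common scale. When each array was scaled to its 75th percentile instead of being quantile normalised, the median of all probes after LPS moved to 0.40 in wt, 0.36 in MK2-/- and 0.41 in MK2/3-/-, so that rises became more frequent for every kind of probe. Under this scaling the wt calls were 4098 higher and 745 lower, those in MK2-/- 2623 higher and 687 lower, and those in MK2/3-/- 3431 higher and 696 lower. Relative to the shift, the median of interval probes in wt was still 0.29 above that of the other probes (0.27 with quantile normalisation).

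The probe with the strongest rise among those named by rule (the 10 largest rises and falls in wt, with 1 probe for each interval) lies in chr10:69669025-69686275 on the reverse strand. A probe was named for a group comparison only if its groups did not overlap, so that this property follows from the rule. In wt, medium and LPS arrays did not overlap at 33.4% of interval probes and at 47.4% of other probes. A_30_P01018532 read 8.19, 8.45, 8.55 and 9.25 (log2 signal) in wt medium and 14.09, 15.37 and 15.84 after LPS. It also rose without overlap in MK2-/- (6.88, 8.0, 7.29 and 7.18 to 13.10, 12.38, 13.36 and 13.83) and in MK2/3-/- BMDM (9.70, 9.48 and 9.21 to 15.16, 15.35, 14.53 and 14.62). The wt log2 difference was 6.49 ± 0.40 (SE, adjusted p = 9.59e-10), an 89.9-fold rise. Another 3 probes address the same interval and strand, and none of them was called. The called rise was thus seen at 1 of 4 probes. With LPS the signal in MK2-/- was lower than in wt by 1.93 on the log2 scale (-1.93 ± 0.40, adjusted p = 0.0063), whereas MK2/3-/- differed from wt by -0.18 ± 0.40 (adjusted p = 0.783). MK2-/- was also lower than wt in medium (-1.27 ± 0.37, adjusted p = 0.0325). The LPS response itself was not called different between MK2-/- and wt (-0.66 ± 0.54, adjusted p = 0.870).

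On chromosome 6, a 9110 bp interval on the forward strand responded in all 3 of its probes. A_30_P01030277 in chr6:57560819-57569928 read 4.06, 3.59, 3.15 and 5.38 in wt medium and 9.49, 10.16 and 10.26 with LPS, a log2 difference of 5.92 ± 0.56 (adjusted p = 1.38e-07). The other 2 probes, A_30_P01021483 and A_30_P01022335, rose by 6.75 and 6.26. In medium the signal was close to background in all genotypes: 2 of 4 wt arrays, none of the MK2-/- arrays and none of the MK2/3-/- arrays were well above it. After LPS, MK2-/- arrays read 6.65, 6.79, 6.81 and 8.22 and MK2/3-/- arrays 7.81, 8.72, 8.74 and 9.92, a rise of at least 6.47-fold and at least 29.8-fold. The MK2-/- arrays thus stayed below every wt array, and all 3 probes were lower in MK2-/- than in wt with LPS, by -3.43, -2.85 and -2.67 (adjusted p = 0.00287 for A_30_P01021483 and 0.00481 for A_30_P01030277). MK2/3-/- BMDM differed from wt by -1.17 at A_30_P01030277 (adjusted p = 0.144) and from MK2-/- by 1.68 (adjusted p = 0.0344). The LPS response itself was not called different between MK2-/- and wt (-1.43 ± 0.76, adjusted p = 0.789).

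A neighbouring interval, chr6:57583950-57624216, rose on both strands with no call between genotypes. Its forward probe A_30_P01025572 read 9.65, 9.87, 9.64 and 10.61 in wt medium and 14.70, 14.50 and 14.23 with LPS, a difference of 4.54 ± 0.25 (adjusted p = 4.25e-10). In MK2-/- (4.37) and MK2/3-/- BMDM (4.55) the rise was of like size, and with LPS MK2-/- differed from wt by -0.12 ± 0.25 (adjusted p = 0.793). The other forward probe rose by 4.48 and the 4 reverse probes by 2.30 to 3.17 in wt. All 6 probes were called in each genotype.

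On chromosome 16, overlapping intervals within chr16:84702353-84710928 hold 13 probes on both strands. In wt, 12 of these rose, by up to 6.48, with a median of 4.54 over the 13; the exception was A_30_P01024115, at 0.24 (adjusted p = 0.398). A_30_P01032196, a forward probe of the 112 bp interval chr16:84708695-84708806, read 5.96, 6.63, 5.45 and 8.03 in wt medium and 12.19, 12.62 and 12.17 with LPS, a difference of 5.81 ± 0.42 (adjusted p = 6.17e-09). Its MK2-/- arrays went from 5.24, 5.22, 5.39 and 5.85 to 12.84, 13.41, 12.34 and 12.99, and its MK2/3-/- arrays from 6.41, 5.51 and 5.49 to 12.86, 12.99, 13.05 and 12.97. Groups with and without LPS did not overlap in any genotype, and with LPS neither knockout was called different from wt at this probe (0.57, adjusted p = 0.381, and 0.64, adjusted p = 0.296).

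At chr7:111526943-111545093 the strands and even neighbouring probes of 1 strand moved apart. The 4 reverse probes rose by 3.69 to 6.51 in wt. Among them, A_30_P01024838 of chr7:111530578-111539097 read 7.40, 7.91, 7.34 and 8.80 in wt medium and 13.33, 13.44 and 13.86 with LPS (5.68 ± 0.35, adjusted p = 1.15e-09), with no overlap. Of the 5 forward probes, 3 rose and 2 fell: A_30_P01022049 by -2.09 (adjusted p = 0.00134) and A_30_P01024573 by -1.93 (adjusted p = 3.58e-06). Both falls were also called in MK2-/- (-2.08 and -2.28) and in MK2/3-/- BMDM (-3.33 and -3.00).

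Other loci in which all probes rose in wt were chr11:119250824-119296960, with 9 of 9 probes at 2.48 to 3.90, chr1:175653557-175672031, with 16 of 16 at 1.20 to 2.85, and chr1:175705225-175717250, with 10 of 10 and a highest value of 4.75. On chromosome 4, the 3 reverse probes of chr4:63736566-63744848 rose by 4.47 to 4.91 and the 3 forward probes of chr4:63810346-63810958 by 3.20 to 3.99. None of the probes of these 5 loci was called between MK2-/- and wt, or between MK2/3-/- and wt, with LPS. Over all 2151 loci, 257 held at least 3 probes that rose in wt, 131 at least 3 that fell, and 19 both.

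Falls were also shared by whole intervals. A_30_P01022977 in the 655 bp interval chr7:16633756-16634410, forward strand, read 10.79, 10.82, 10.97 and 10.99 in wt medium and 7.08, 5.85 and 6.15 with LPS. The log2 difference was -4.54 ± 0.25 (adjusted p = 4.22e-10), with -5.11 in MK2-/- and -4.41 in MK2/3-/-, and all 3 probes of the interval fell in each genotype. With LPS the 11 arrays of all genotypes lay between 5.85 and 7.08.

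On chromosome 3, the reverse strand of chr3:21964899-21974885 fell at 6 of 6 probes in wt, by -4.46 to -3.01, while the forward strand gave 1 rise in 5 probes (A_30_P01022215, 0.94, adjusted p = 0.00466). A_30_P01022266 read 8.99, 8.77, 9.15 and 9.18 in wt medium and 4.49, 4.24 and 4.97 with LPS (-4.46 ± 0.54, adjusted p = 3.12e-06). In MK2/3-/- BMDM no LPS array was well above background for this probe, against 8.88, 8.44 and 8.32 in medium, a fall of at least 18.8-fold. The locus with the most falling probes was chr11:95627874-95640824, with 18 of 22 lower in wt (median -2.19), 19 in MK2-/- and 17 in MK2/3-/-. At the long interval chr11:112905201-113062945, A_30_P01018328 fell from 8.65, 8.42, 9.07 and 9.00 to 5.35, 5.82 and 5.94 in wt (-3.08 ± 0.42, adjusted p = 1.1e-05), and its interval fell at all 3 probes.

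**Figure D2:**
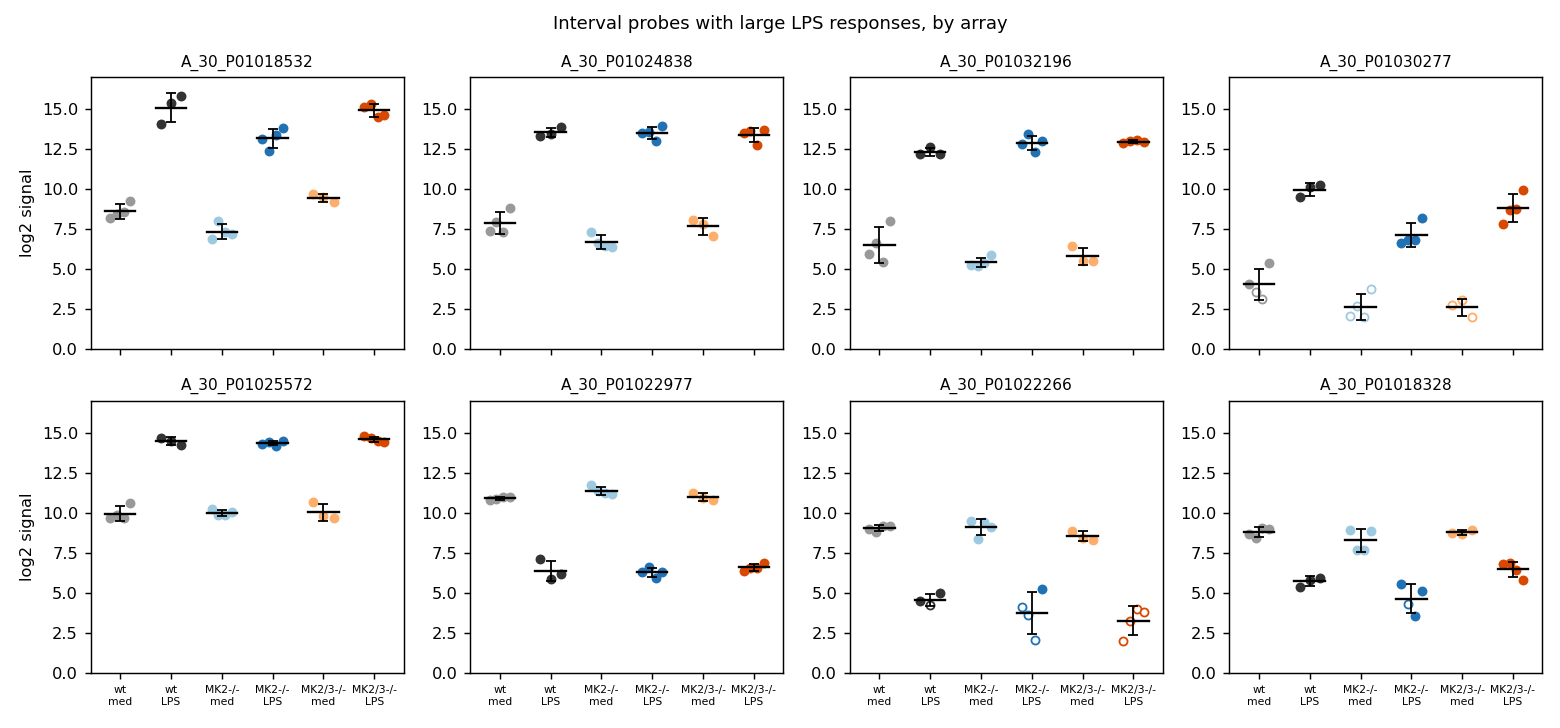
Log2 signal on every array for 8 interval probes named for their LPS response, by genotype and treatment; filled points were well above background and open points were not, bars are group means and error bars the SD (n = 3 or 4). In each panel the wt medium and wt LPS arrays do not overlap, which was a condition for naming and held at 33.4% of interval probes. The same direction is seen in MK2-/- and MK2/3-/- BMDM. In the A_30_P01030277 panel the 4 MK2-/- LPS arrays (6.65 to 8.22) lie below the 3 wt ones (9.49 to 10.26), likewise a condition for naming.

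Of the 10 named rises in wt, 9 lie in intervals with at least 2 probes on the same strand, and in 5 of these only the named probe was called. Of the 10 named falls, 7 lie in such intervals, and in none of these was the named probe the only one called. All 20 were called in the same direction in both knockouts. In wt medium, replicate 4 was the highest of the 4 arrays at 8 of the 10 named rises and at 41.9% of the 246 probes with at least 4-fold rises, against 23.9% of all interval probes. Its part in these rises was not tested; without it 2961 interval probes were called in wt, and all 20 named responses were still called.

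Probes of the same interval and strand were then set against each other. Of the 3387 names with at least 2 probes, 1827 had at least 1 probe called in wt after LPS. In 451 at least 2 probes rose, in 239 at least 2 fell, in 95 at least 1 rose and another fell, and in 1094 only 1 probe was called. All probes of the name rose in 97 cases and fell in 86. For 1 pair of probes from each name, the log2 differences had the same sign in 2212 of 3387 pairs (r = 0.48 as a description, across intervals measured on the same arrays).

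The 2 strands of an interval were compared in the same way. In 998 intervals both strands had a probe that passed, each strand being represented by its brightest probe. In wt both strands rose in 97, both fell in 2 and they moved in opposite directions in 21, whereas in 466 only 1 strand was called (397 rises and 69 falls). The log2 differences of the 2 strands had the same sign in 640 of the 998 intervals, but their sizes were hardly related (r = 0.064, as a description from shared arrays). Both strands of chr12:53669892-53710742 were among the intervals named by rule, one for a rise and the other for a fall. On its reverse strand A_30_P01029844 read 6.56, 6.77 and 6.94 with LPS in wt and was well above background on no medium array of any genotype, a rise of at least 5.6-fold (adjusted p = 5.51e-08). On its forward strand A_30_P01020001 went from 6.55, 6.58, 5.92 and 5.90 in wt medium to 4.20, 2.03 and 2.90 with LPS (-3.19 ± 0.51, adjusted p = 7.52e-05), where 1 of 3 arrays was well above background. The forward strand was also lower in MK2-/- than in wt medium, by -2.33 (adjusted p = 0.00635), at 4.00, 2.80, 4.15 and 4.69. Values near 2 are the lowest processed signals and have no order among themselves.

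Whole loci were counted by strand as well, by a rule chosen after the values were seen. In wt, 41 strands of a locus held at least 5 falling probes while at least 3 probes of the opposite strand passed, and in 25 of them no probe of the opposite strand fell. Of the 314 opposite probes, 17.5% fell. For rises there were 25 such strands, the opposite strand held at least 1 rise in every case, and 48.1% of its 158 probes rose. In MK2-/- BMDM, measured on other arrays, the opposite strand was without a fall in 25 of 39 cases and without a rise in 5 of 22, and in MK2/3-/- BMDM in 26 of 40 and 6 of 37. The opposite probes fell in 15.8% and rose in 46.3% of cases in MK2-/-, and fell in 18.1% and rose in 33.7% in MK2/3-/- BMDM. Among all interval probes, 7.87%, 8.39% and 7.53% fell and 17.5%, 12.7% and 20.9% rose in wt, MK2-/- and MK2/3-/-, and whether falls and rises differ beyond these rates was not tested. The most falls on 1 strand with no call on the other were at chr16:43623175-43642715, where all 16 forward probes fell in wt, by -2.34 to -0.81, and none of the 10 reverse probes was called (-1.08 to 0.70). In MK2-/- BMDM 16 of 16 forward and 1 of 10 reverse probes fell, and in MK2/3-/- BMDM 15 and 0. The reverse probes were dimmer there, with a median log2 signal of 5.46 against 8.18, and the part of signal strength in this contrast was not tested.

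**Figure D3:**
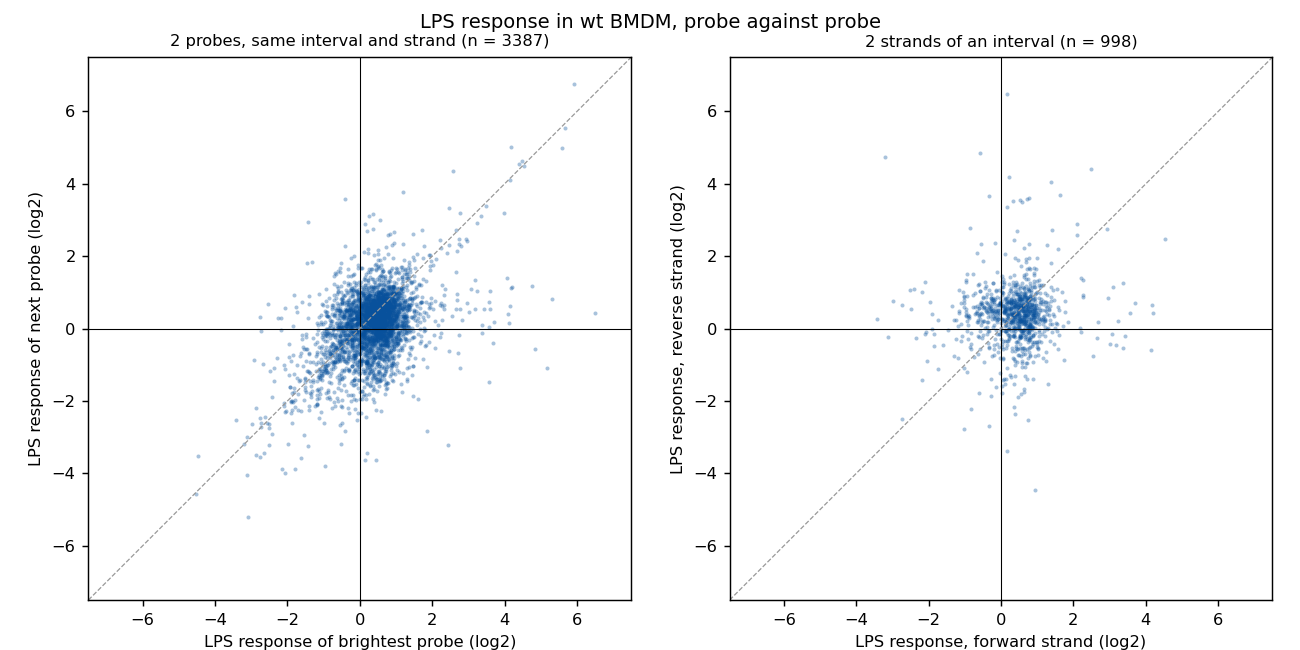
Log2 difference LPS minus medium in wt BMDM for pairs of interval probes: left, 2 probes of the same interval and strand (3387 pairs); right, the forward against the reverse strand of the same interval (998 pairs). Probes of 1 strand lie along the diagonal more than the strands do, with r = 0.48 and r = 0.064.

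The next comparisons set the genotypes against each other with LPS. Between MK2-/- and wt, 1466 interval probes differed, 928 higher and 538 lower in MK2-/-, that is 11.5% of the interval probes and 11.5% of all probes tested (5.10% higher and 6.40% lower). Between MK2/3-/- and wt, 2234 differed, 1769 higher and 465 lower, with 20.1% of all probes called (9.87% higher and 10.3% lower). Between MK2/3-/- and MK2-/-, there were 2307 (1696 higher and 611 lower in MK2/3-/-), or 18.2% of interval probes against 15.1% of all probes (9.54% higher and 5.56% lower). Median log2 differences of the interval probes were 0.18, 0.29 and 0.04, and those of other probes -0.04, -0.04 and -0.06. Against wt, the median interval probe was thus higher in both knockouts, in comparisons that share the wt arrays. The T cell and erythroid marker lists were also higher in MK2-/- than in wt, as given above. Their part in these counts was not tested. With spread taken from the arrays of the 2 groups alone, the counts were 936, 407 and 1275 instead. The MK2-/- count was also 786 or 754 without replicate 2 or 3 of wt with LPS, and 766, 741 or 906 without replicate 1, 2 or 4 of MK2-/- with LPS.

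In medium, MK2-/- and wt differed at 1961 interval probes (1436 higher and 525 lower in MK2-/-), that is 15.4% of the interval probes against 11.3% of all probes (7.42% higher and 3.89% lower). MK2/3-/- and wt differed at 468 (381 higher and 87 lower; 2.69% of all probes were called, 1.96% higher and 0.730% lower), and MK2/3-/- and MK2-/- at 782 (493 higher and 289 lower; 4.35% of all probes, 2.82% higher and 1.53% lower). The count of 468 rested on single arrays. It was 11 without replicate 1 of MK2/3-/- in medium, 185 and 92 without its replicates 2 and 3, and 63, 154, 227 and 179 without replicates 1 to 4 of wt in medium. Leaving out MK2-/- arrays, which enter this comparison only through the spread, gave 299 without replicate 1 with LPS and 744 without replicate 2 in medium. The MK2-/- count was 932 without wt medium replicate 1 and 891 without MK2-/- medium replicate 2, and that between the knockouts was 500 without MK2-/- medium replicate 3 and 412, 449 and 426 without MK2/3-/- medium replicates 1, 2 and 3.

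Scaling to the 75th percentile moved these genotype differences as well. The median of all probes became 0.20 and 0.40 for MK2-/- and MK2/3-/- against wt with LPS, and 0.24 and 0.36 in medium. With LPS the split then was 3206 higher and 222 lower for MK2-/-, 4864 and 174 for MK2/3-/-, and 1474 and 127 between the knockouts. In medium it was 4779 and 204, 4468 and 19, and 485 and 65. The interval probes exceeded the other probes under this scaling too, by 0.56 and 0.66 in their medians with LPS. The number of interval probes that were higher in a knockout therefore rests on the scaling, and single probes are given next with their values.

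**Figure D4:**
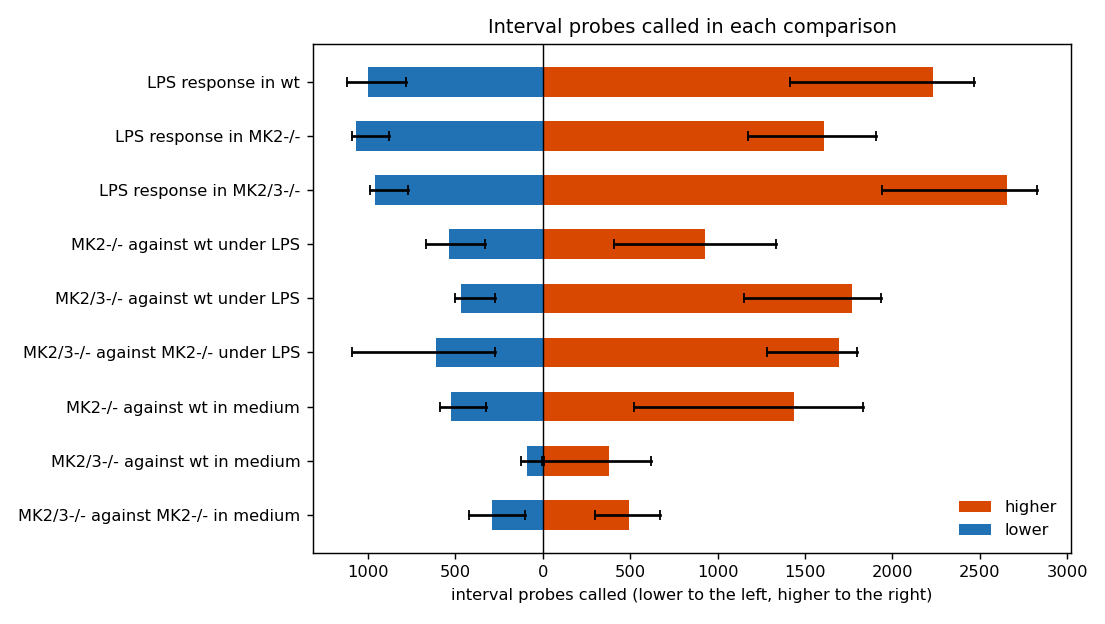
Number of interval probes higher (to the right) and lower (to the left) in each comparison, of 12710 tested (limma, adjusted p below 0.05); black lines give the range of the count in that direction when each of the 22 arrays is left out in turn. LPS responses (2676 to 3613 probes) exceed the genotype differences, and the total for MK2/3-/- against wt in medium ranged from 11 to 744 probes.

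Genotype differences called with LPS mostly had the same sign in medium, but fewer of them were called there. Of the interval probes called with LPS, 96.2% of those between MK2-/- and wt, 96.2% of those between MK2/3-/- and wt, and 95.8% of those between the knockouts had the same sign in medium, in arrays that the first comparison did not use but that came from the same slides. Called in medium too were 692 of 1466, 326 of 2234 and 605 of 2307. The like shares of other probes are not given here, so this agreement shows nothing particular to interval probes. Over all interval probes, r between the treatments was 0.69, 0.63 and 0.76, as a description.

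A_30_P01018293 in chr4:123155515-123361565, forward strand, was higher in both knockouts. In wt medium it read 3.69, 3.00, 2.04 and 3.53 and was well above background on none of the arrays, against 6.58, 6.69, 6.77 and 5.62 in MK2-/- and 6.91, 5.35 and 5.57 in MK2/3-/- medium. These were differences of at least 4.41-fold (adjusted p = 0.000213) and at least 3.19-fold (adjusted p = 0.00403). With LPS, wt read 4.74, 4.23 and 4.63, MK2-/- 7.11, 7.26, 6.31 and 6.58, and MK2/3-/- 6.66, 6.63, 7.48 and 6.79. Every knockout array was above every wt array of the same treatment. In medium this followed from the naming rule. There MK2-/- and wt did not overlap at 29.1% of interval probes and 21.2% of other probes. For MK2/3-/- and wt in medium these shares were 30.3% and 24.4%. Of the 3 probes of this interval, 2 were called higher in MK2-/- medium and 1 in MK2/3-/- medium.

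A_30_P01030861 in chr1:173250734-173259306, forward strand, was higher in MK2/3-/- BMDM than in both other genotypes. It read 10.75, 10.26, 10.64 and 8.96 in MK2/3-/- with LPS, 7.73, 7.20 and 6.99 in wt, and 6.76, 5.68, 7.25 and 6.54 in MK2-/-. MK2/3-/- exceeded wt by 2.85 ± 0.42 (adjusted p = 0.000284) and MK2-/- by 3.60 ± 0.39 (adjusted p = 8.81e-06), with no overlap. The lack of overlap with wt followed from the naming rule and was seen at 22.9% of interval probes and 27.5% of other probes. In medium the arrays read 9.49, 9.38 and 9.58 in MK2/3-/-, 7.11, 7.35, 8.40 and 7.54 in wt, and 6.50, 7.09, 6.69 and 5.86 in MK2-/-. MK2-/- and wt were not called different (-0.75 with LPS, adjusted p = 0.245), and LPS itself was not called at this probe in any genotype (adjusted p = 0.647, 0.977 and 0.229).

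MK2-/- BMDM were lowest at A_30_P01025056 in chr13:67211950-67217199, reverse strand. MK2-/- arrays read 4.29, 3.02, 3.58 and 4.26 with LPS and 2.03, 4.10, 4.12 and 3.41 in medium, with 1 of 4 arrays well above background in each treatment, so that the sizes of the differences below rest on values near background. In wt the values were 7.14, 5.51 and 6.45 with LPS and 6.30, 5.66, 6.74 and 6.66 in medium, and in MK2/3-/- 8.07, 7.23, 7.95 and 8.17 with LPS and 7.27, 6.98 and 7.09 in medium. MK2-/- lay below wt by -2.58 ± 0.47 with LPS (adjusted p = 0.00327) and by -2.92 ± 0.43 in medium (adjusted p = 0.00114). MK2/3-/- lay above MK2-/- by 4.07 and 3.69 (adjusted p = 7.49e-06 and 0.000195). No array of MK2-/- reached the level of any array of the other genotypes. The naming rule had fixed this except between MK2-/- and wt with LPS.

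At 2 probes named for both an LPS response and a genotype difference, the level with LPS depended on the genotype. A_30_P01022435 lies in the long interval chr4:10407110-10724958 on the reverse strand. In wt it rose from 2.56, 2.01, 2.04 and 4.99 to 8.62, 8.57 and 7.42 (5.30 ± 0.65, adjusted p = 3.85e-06). In MK2-/- it reached 8.58, 8.62, 7.87 and 7.34. In medium 1 of 4 wt arrays and no knockout array was well above background, so the sizes of its LPS responses rest on values near background. The rise was at least 12.8-fold in MK2-/- and at least 1.62-fold in MK2/3-/-. With LPS, MK2/3-/- arrays read 3.42, 5.67, 5.50 and 3.77, of which 2 were well above background, below every array of the other genotypes by -3.62 ± 0.65 against wt (adjusted p = 0.00115) and by -3.51 ± 0.61 against MK2-/- (adjusted p = 0.000668). The difference of the LPS response itself between MK2/3-/- and wt was -3.17 ± 0.92 (adjusted p = 0.167), a size that rests on the medium values near background. Of the 2 probes of this interval, the other was not called in wt after LPS.

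A_30_P01020631 in chr5:137411861-137413010, forward strand, fell with LPS in wt from 9.29, 8.76, 9.50 and 9.45 to 6.99, 6.06 and 5.36 (-3.11 ± 0.60, adjusted p = 0.000476). With LPS it read 3.65, 4.54, 2.30 and 3.36 in MK2-/- and 1.99, 2.02, 4.60 and 4.10 in MK2/3-/- BMDM. Since 1 of 4 arrays was well above background in each, the sizes below rest on values near background. With LPS the knockouts lay below wt by -2.67 (adjusted p = 0.0105) and -2.96 (adjusted p = 0.00256), and no knockout array reached a wt array. For MK2/3-/- this was a condition for naming. In medium the differences were -0.31 (adjusted p = 0.754) and -0.82 (adjusted p = 0.495). The differences of the LPS responses were not called (-2.37, adjusted p = 0.613, and -2.14, adjusted p = 0.392).

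**Figure D5:**
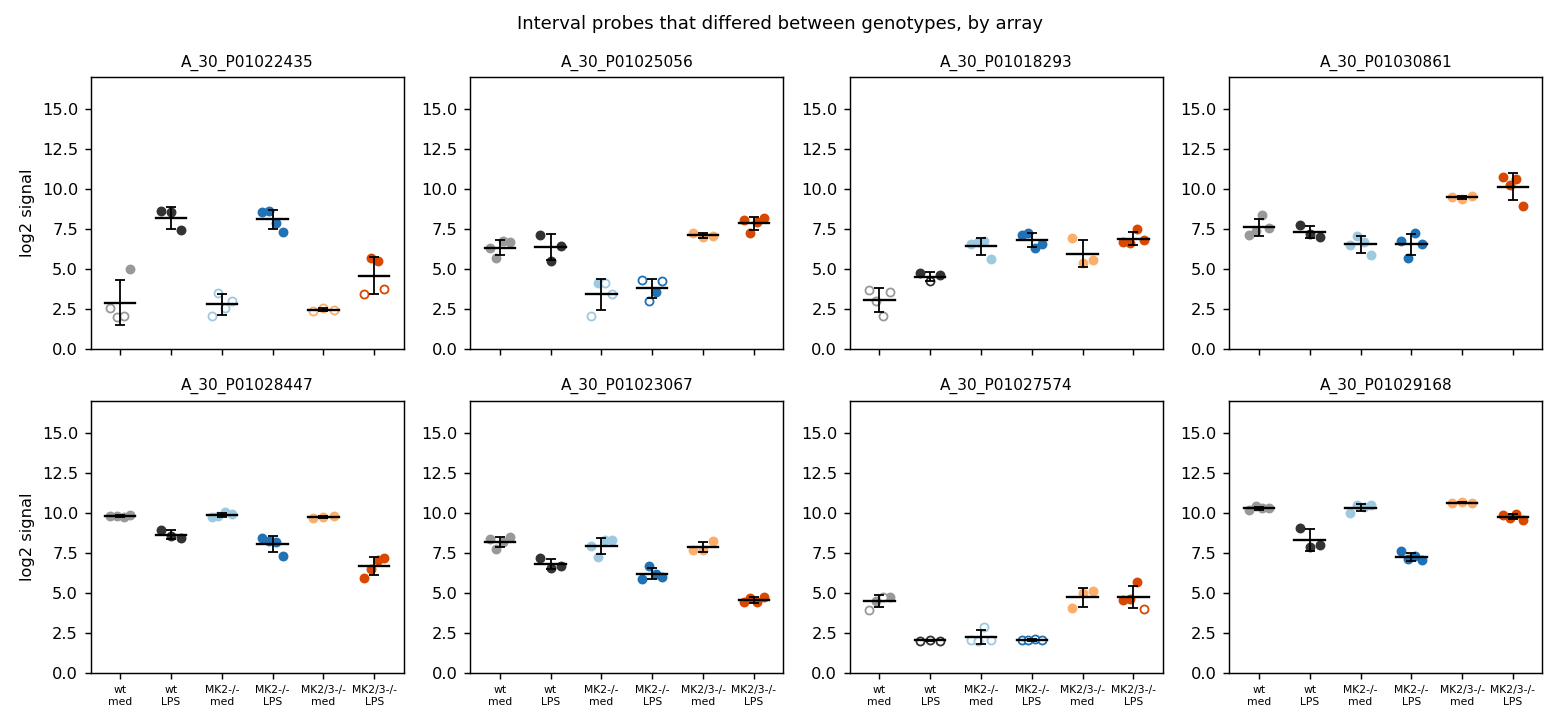
Log2 signal on every array for 8 interval probes named for a difference between genotypes or between LPS responses, by genotype and treatment; filled points were well above background and open points were not, bars are group means and error bars the SD (n = 3 or 4). At A_30_P01022435 the 4 MK2/3-/- LPS arrays (3.42 to 5.67) lie below the wt (7.42 to 8.62) and MK2-/- (7.34 to 8.62) ones, which was a condition for naming. At A_30_P01029168 the fall with LPS is smallest in MK2/3-/-.

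The interval probes with at least 4-fold rises in wt, which were chosen by high wt values that also enter the comparisons with wt, were then looked up between the genotypes. Of the 246, 53 (21.5%) were called in any of the 3 genotype comparisons with LPS, against 21.4% of the 1655 probes of any kind that rose as much, and 31.9% of all probes tested. MK2-/- was higher than wt at 5 and lower at 14, MK2/3-/- was higher than wt at 18 and lower at 12, and MK2/3-/- was higher than MK2-/- at 30 and lower at 6. The shares by direction among the 1655 probes are not given here, so these counts show nothing particular to interval probes.

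Support from other probes of the interval was weaker for genotype differences than for LPS responses. Of the 60 probes named for a genotype difference, 41 lie in intervals with at least 2 probes, and at 33 of these only the named probe was called. At 3 all probes of the interval were called in the same direction, namely at A_30_P01030277 (MK2-/- against wt with LPS) and at A_30_P01025056 (MK2/3-/- against MK2-/- with LPS and in medium). For MK2/3-/- against wt in medium, 390 of the 3387 names with at least 2 probes had a call, and in 351 of them a single probe was called.

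Finally, LPS responses were tested against each other across genotypes. No interval probe was called between MK2-/- and wt (0% of all probes; 599 interval probes had an unadjusted p below 0.05 in limma). Between MK2/3-/- and wt 4 were called, 0.031% of interval probes against 0.274% of all probes. Between MK2/3-/- and MK2-/- 1 was called (0.0079% against 0.0194%). With array weights these counts were 30, 168 and 9, and with the letter of the array name as a random block 0, 12 and 2. The shares of all probes under these settings are not given here, so these counts show no change particular to interval probes. Arrays of a like letter in medium and with LPS came from mice of the same age in 10 of 10 cases.

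A_30_P01029168 in the 548 bp interval chr13:94200051-94200598, reverse strand, fell with LPS in all genotypes but to different levels. It went from 10.14, 10.41, 10.29 and 10.26 to 9.05, 7.85 and 7.98 in wt, and from 9.99, 10.51, 10.34 and 10.45 to 7.58, 7.10, 7.29 and 7.03 in MK2-/-. In MK2/3-/- it went from 10.61, 10.65 and 10.60 to 9.85, 9.69, 9.89 and 9.57. The falls were -1.98, -3.07 and -0.87 on the log2 scale, and the response in MK2/3-/- differed from that in MK2-/- by 2.20 ± 0.32 (adjusted p = 0.0163). In medium the genotypes lay within 0.34 of each other, and with LPS the arrays of the 3 genotypes did not overlap. Of the 3 probes of the interval, this one alone was called in that test.

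At A_30_P01028447 in chr17:33425193-33449090, forward strand, the fall was largest without both kinases. Arrays in medium lay between 9.68 and 10.02 in all genotypes. With LPS they read 8.94, 8.52 and 8.44 in wt, 8.45, 8.20, 8.18 and 7.30 in MK2-/-, and 5.92, 6.48, 7.02 and 7.16 in MK2/3-/-. The fall was -3.09 in MK2/3-/- and -1.15 in wt, a difference of -1.93 ± 0.38 (adjusted p = 0.0397). A_30_P01023067 in chr6:54595084-54595833, forward strand, went from 7.66, 7.70 and 8.21 to 4.40, 4.67, 4.39 and 4.76 in MK2/3-/- and from 8.34, 7.73, 8.17 and 8.46 to 7.15, 6.54 and 6.69 in wt, a difference of -1.93 ± 0.38 (adjusted p = 0.0397). Both adjusted p-values passed 0.05 narrowly and were above it in 20 of 33 alternative settings each.

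The other 2 calls concerned dim probes. A_30_P01027574 in chr6:112552041-112560067, forward strand, was well above background on no wt array with LPS and on no MK2-/- array, but on 2 of 4 wt arrays in medium, on 3 of 4 MK2/3-/- arrays with LPS (4.56, 4.62, 5.64 and 4.00) and on all 3 in medium (4.04, 4.96 and 5.09). The response in MK2/3-/- was called different from that in wt (adjusted p = 0.0341), but the wt arrays with LPS read 1.99, 2.03 and 2.01, so that the wt fall is known only as at least 1.04-fold and the difference has no measured size. A_30_P01027670 in chr14:21437920-21464655, reverse strand, was well above background on 3 arrays in all, so that its call (adjusted p = 0.0492) lies in a range where levels have little order.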

How the data were processed

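RNA of 22 BMDM samples was labelled with 1 dye and hybridised to 1 Agilent array each. The authors deposited the scanner output with processed intensity per spot (background-corrected by Feature Extraction, not normalised between arrays), and a table of log2 values, which according to their methods was quantile normalised and expressed relative to the median of each probe. That table followed the scanner values here with r of 0.992 to 0.999 per array.

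Control spots were left out and spots marked irregular set to missing. Log2 processed signals were quantile normalised over the 22 arrays, and spots of a probe averaged. A model with 6 group means was fitted to the probes that reached well above background on 3 or more arrays in limma 3.58.1 (R 4.3.3), with p-values adjusted over all 46297 probes by Benjamini-Hochberg. The fit was tested on simulated data. Each array was grouped by its label. The methods describe independent experiments, and the number of arrays limits the precision. Named were, with 1 probe per interval (the brightest), the 10 largest rises and falls in wt, the 5 and 5 in each knockout and in each genotype comparison whose groups do not overlap, and all called differences of LPS responses. Members and lists were chosen with earlier results of these data known. An "at least" fold sets the brighter group's mean against the higher of the dim value and the array's lowest signal among probes well above background. Same-numbered arrays correlated above 0.1 in 4 of 10 pairs, against 6 of 30 of unlike number. For like and unlike array letters this was 3 of 10 and 7 of 30. Arrays were not paired in the main fit. However, both MK2-/- arrays numbered 3 share a letter and went against the label male, and mouse ages matched in 10 of 10 letter pairs. The correlations cannot settle whether such arrays share an animal. Fits with number or letter as a block are given below. Neighbouring genes of the intervals were not analysed here.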

Additional observations from a re-analysis of the deposited data

Results flagged for a closer look

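In 92 groups of 4 arrays tested for 1 array lying apart from the other 3 (Dixon's test), 4 values were outlying, and chance alone marks about 1 in 20 groups. A_30_P01030277 in chr6:57560819-57569928 read 8.22 in replicate 4 of MK2-/- with LPS, above the other arrays at 6.65 to 6.81. A_30_P01018293 in chr4:123155515-123361565 read 5.62 in replicate 4 of MK2-/- in medium, below the others at 6.58 to 6.77. A_30_P01027574 read 2.88 in replicate 3 of MK2-/- in medium, where no array was well above background. Replicate 3 of MK2-/- with LPS carried 837 irregular interval spots, against 0 to 4 on the other arrays of its group.

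LPS responses that differed between genotypes, by a limma test of the difference itself, were seen at 5 interval probes. MK2/3-/- differed from wt by 2.46 at A_30_P01027574, 1.87 at A_30_P01027670, -1.93 at A_30_P01028447 and -1.93 at A_30_P01023067, and from MK2-/- by 2.20 at A_30_P01029168 (adjusted p = 0.0341, 0.0492, 0.0397, 0.0397 and 0.0163). The first 2 values rest on arrays at background and have no measured size. Among the alternative settings, each call was lost in 15 of 33, 25 of 32, 20 of 33, 20 of 33 and 4 of 33.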

How the results depend on the processing

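The 40 named LPS responses kept their direction and their call under all alternatives run on single probes, including each left-out array. Of the 60 named genotype differences, 9 were lost with 75th percentile scaling, 11 with normexp background correction, 10 with only the groups compared and 101 of 1320 when arrays were left out, and none reversed. Counts of interval probes that moved by more than 1.5 times follow, and the cause was not tested. Where several are given, the order is MK2-/- and MK2/3-/- against wt and MK2/3-/- against MK2-/-. The share of all probes under each setting is not given, so these counts do not show whether other probes moved alike. With 75th percentile scaling they were 3428 and 5038 with LPS, 4983 and 4487 against wt in medium, and 0 and 0 for the LPS responses of MK2/3-/- against wt and MK2-/-. Normexp gave 472 between the knockouts in medium (76.7% of them higher, against 63.0%) and 7 and 3 for those LPS responses. The deposited table gave 293 for MK2/3-/- against wt in medium and 1 for the LPS response against wt, which was also 1 with marked spots kept. Probes well above background on every array of a group gave 2 for the LPS responses of the knockouts. Requiring at least 2-fold left 1931, 1574 and 2119 LPS responses in wt, MK2-/- and MK2/3-/-, 1391 for MK2/3-/- against wt with LPS and 1127 for MK2-/- against wt in medium. The groups compared alone gave 936, 407 and 1275 with LPS, 917 for MK2/3-/- against wt in medium, and 3 and 1 for the LPS responses against wt. The methods' t-test, unadjusted, called 3303 for MK2-/- against wt with LPS and 4417, 3590 and 2541 in medium. After Benjamini-Hochberg it called 2288 LPS responses in MK2/3-/-, 365, 33 and 743 with LPS, and 1130 and 469 for MK2-/- against wt and between the knockouts in medium; it was not defined for differences of LPS responses. Array weights gave 4926 and 4357 LPS responses in wt and MK2-/-, 3877 for MK2-/- against wt with LPS, 1817 and 1913 for MK2/3-/- against wt and MK2-/- in medium, and 30, 168 and 9 differences of LPS responses.

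With the replicate block (correlation within a number 0.0947) the LPS responses of MK2/3-/- differed from wt at 13 and from MK2-/- at 2 probes, and with the letter of the array name as block at 12 and 2. The other counts stayed within 1.5 times, such as 3503 LPS responses in wt. Mouse ages matched in 8 of 10 pairs of like number and in 10 of 10 of like letter.

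Chosen after seeing the data, leaving out both MK2-/- arrays numbered 3 gave 5, 1 and 28 differences of LPS responses, and 3237, 2600 and 3666 LPS responses. Keeping only probes well above background on all 22 arrays gave 927 for MK2-/- against wt and 1035 between the knockouts with LPS, 282 between the knockouts in medium, and 9 and 2 for the LPS responses of MK2/3-/-.

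With each array left out in turn, LPS responses numbered 2212 to 3533 in wt, 2057 to 2980 in MK2-/- and 2710 to 3744 in MK2/3-/-. With LPS the genotypes differed at 741 to 1944, 1495 to 2441 and 1556 to 2614 probes, in medium at 891 to 2403, 11 to 744 and 412 to 924, and the LPS responses at 0 to 8, 0 to 23 and 0 to 3. The planned look at genes beside the intervals was not run. Dim signals limit these results, since 46.0% of the interval probes were well above background on every array.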

Other observations

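Of the 418 interval probes on the X chromosome, 9.81% rose and 13.9% fell after LPS in wt. These shares were 8.37% and 12.9% in MK2-/-, and 13.4% and 10.3% in MK2/3-/- BMDM. Falls thus outnumbered rises in wt and MK2-/-, and rises outnumbered falls in MK2/3-/-, but a difference between the genotypes was not tested. The MK2-/- shares include the arrays that went against the label male, and their part was not tested. The shares of other X-linked probes and the number of loci behind these calls are not given here, so nothing particular to interval probes is shown. On each of the autosomes 13.7% to 22.3% of interval probes rose in wt, and on chromosome 17 falls also outnumbered rises in MK2-/- (14.2% and 10.4%). Forward and reverse strands in wt had 17.9% and 17.2% of interval probes higher and 6.76% and 8.89% lower.

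A switch from background to signal was rare. Only 9 interval probes were well above background on all 11 LPS arrays and on no medium array, and 18 the other way round, while the numbers among other probes were 21 and 49. In total, 7525 of the 12710 interval probes were called in at least 1 of the 12 comparisons, and 5185 (40.8%) in none, against 34.0% of all probes tested.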
